A study of Mus musculus with 3 samples.

Results

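The genes of G2 and mitosis examined here are 40 genes listed by symbol, in a list made with earlier results of these data known. By role they are grouped as kinases with their cyclins and phosphatases, kinetochore and checkpoint genes, spindle genes, cytokinesis genes, genes of mitotic exit, and 3 genes of transcription and chromosome structure. They belong to 15240 genes tested, and all 40 were well above background on all 3 arrays. Gene expression was measured on 1-colour Agilent arrays, 1 array per splenic tumour, in male mice aged 10 weeks. The LSD1 × p53+/− genotype had 2 tumours, which the labels number 2 and 3 and which are called LSD1 tumours here. The p53+/− genotype had 1, called the p53 tumour. All animals were thus p53+/−, and LSD1, the histone demethylase encoded by Kdm1a, named the element that only the first genotype had. The labels do not say whether that element is a transgene, which promoter drives it or in which cells, nor whether the numbers name mice or lines. No pooling is stated, and the cells are described as isolated splenic cells in one label and as splenic tumour in another. Markers of splenic cell types were present: 8 of 8 B cell genes, 8 of 8 macrophage genes and 7 of 8 T cell genes were above background on all 3 arrays.

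A cell that enters mitosis activates cyclin-dependent kinase 1 with its cyclins, builds a spindle, attaches each chromosome through its kinetochore, waits for the spindle checkpoint and then divides its cytoplasm. Most genes for these steps are transcribed in a burst late in the cell cycle and are silent in resting cells, so their RNA in a tissue sample follows the share of dividing cells. In the spleen, dividing cells include erythroblasts, granulocyte precursors and activated lymphocytes as well as tumour cells. In a whole tumour, more dividing cells and more RNA per dividing cell cannot be told apart.

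All 40 genes had a higher signal in both LSD1 tumours than in the p53 tumour, although Cdc25b differed by 0.00 log2 units in LSD1 tumour 2 and the direction of Cdc25b, Pttg1 and Mki67 turned with other scalings, as given with each. Among all tested genes 35.0% were higher in both with both LSD1 arrays above background, and 50.9% exceeded the p53 tumour in LSD1 tumour 2 and 56.0% did so in LSD1 tumour 3, counting genes above background on the LSD1 array in question. The median difference of the 40 genes was 0.89 log2 units in LSD1 tumour 2 and 1.70 in LSD1 tumour 3, which is 1.86-fold and 3.25-fold, beside medians of 0.05 and 0.16 over all tested genes. A difference of at least 2-fold in both tumours was reached by 16 of the 40 genes, against 3.48% of all tested genes, and none was at least 2-fold lower in both, against 5.38%. Among genes above background on all 3 arrays, as all 40 were, 40.6% were higher in both. At least 2-fold higher in both were 3.49% of those genes, and at least 2-fold lower 3.25%. LSD1 tumour 2 was on another slide and in another scan than the p53 tumour, so its differences cannot be told apart from slide or scan. It set the count of 16, since 16 genes reached 2-fold there (background 11.7%) and 39 did in LSD1 tumour 3 (background 15.2%). Without LSD1 tumour 2 the count was thus 39, and in the authors' value table, which is scaled differently, it was 8 against 1.44% of all genes.

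The differences of the 40 genes lay close together. Their SD across genes was 0.42 log2 units in LSD1 tumour 2 and 0.33 in LSD1 tumour 3, while all genes above background on all 3 arrays had SDs of 0.83 and 0.84. Such a spread was not particular to the 40 genes. Of the lists given below, the anaphase-promoting complex had SDs of 0.35 and 0.34 and S phase genes 0.48 and 0.43. Further mitosis genes together had 0.53 and 0.58, and quiescence genes 0.97 and 0.87. The quartiles of the 40 genes lay between 0.67 and 1.16 in LSD1 tumour 2 and between 1.58 and 1.77 in LSD1 tumour 3. The error that the array software gives each spot puts 0.20 to 0.22 log2 units on a difference between arrays. Beyond 2 such errors lay 36 genes in LSD1 tumour 2 and 39 in LSD1 tumour 3. The share of all tested genes beyond 2 errors was not computed, but differences of that size were common among them. Their quartiles were -0.47 and 0.56 in LSD1 tumour 2 and -0.43 and 0.70 in LSD1 tumour 3. That error covers the measurement and not the spread between animals.

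No member passed the test that sets the genotype difference against the spread between tumours. With 2 arrays against 1, limma has 1 residual degree of freedom and takes the lone p53 tumour to vary like the LSD1 tumours. Adjusted p ran from 0.967 to 0.990 over the 40 genes, and 0 of 15240 genes (0.00%) were called at an adjusted p of 0.05. The standard error of the mean difference was between 0.48 and 0.93 log2 units. At an unadjusted p under 0.05 limma counted 5 of the 40 genes (12.5%), namely Ttk, Mad2l1, Foxm1, Kif2c and Bub1, against 3.73% of all genes, and all 5 were higher, against 1.15% of all genes that were higher at that p. These p-values rest on the gap between the 2 LSD1 tumours, which lay on different slides, and on a spread pooled over all tested genes. The total degrees of freedom were 3.27, and the p-values cover these samples only.

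**Figure D1:**
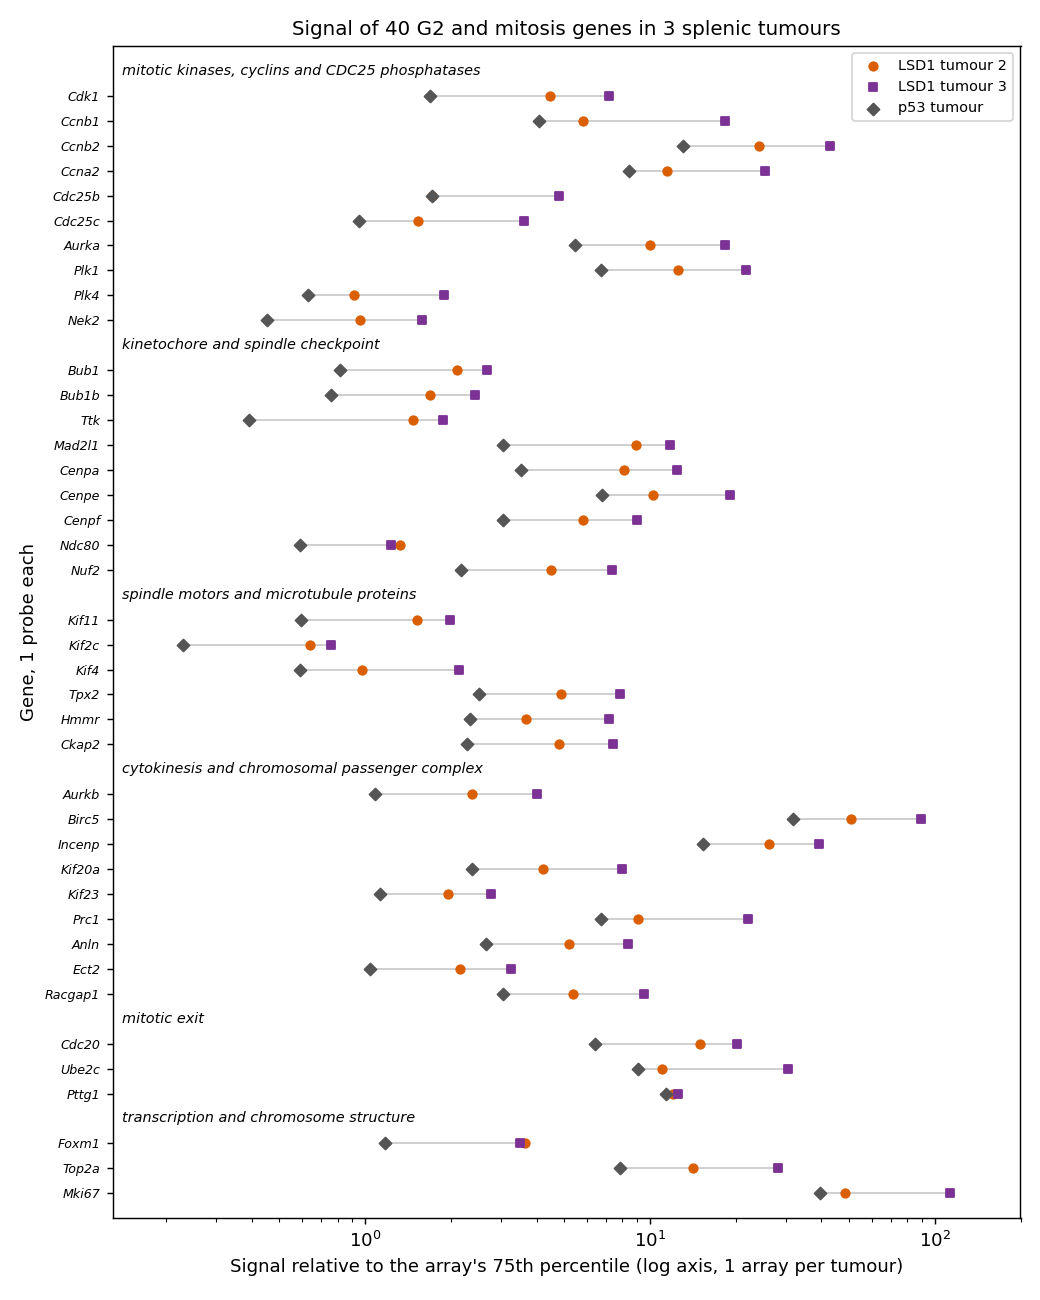
Signal of the 40 G2 and mitosis genes in LSD1 tumour 2 (circles), LSD1 tumour 3 (squares) and the p53 tumour (diamonds), as multiples of each array's 75th percentile on a log axis, 1 array per tumour and no error bars. The p53 tumour is leftmost for the genes shown, coinciding with LSD1 tumour 2 for Cdc25b, and LSD1 tumour 3 is rightmost for all but Ndc80 and Foxm1; for Pttg1, and for Cdc25b and Mki67 in LSD1 tumour 2, the direction turned with other scalings.

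**Figure D2:**
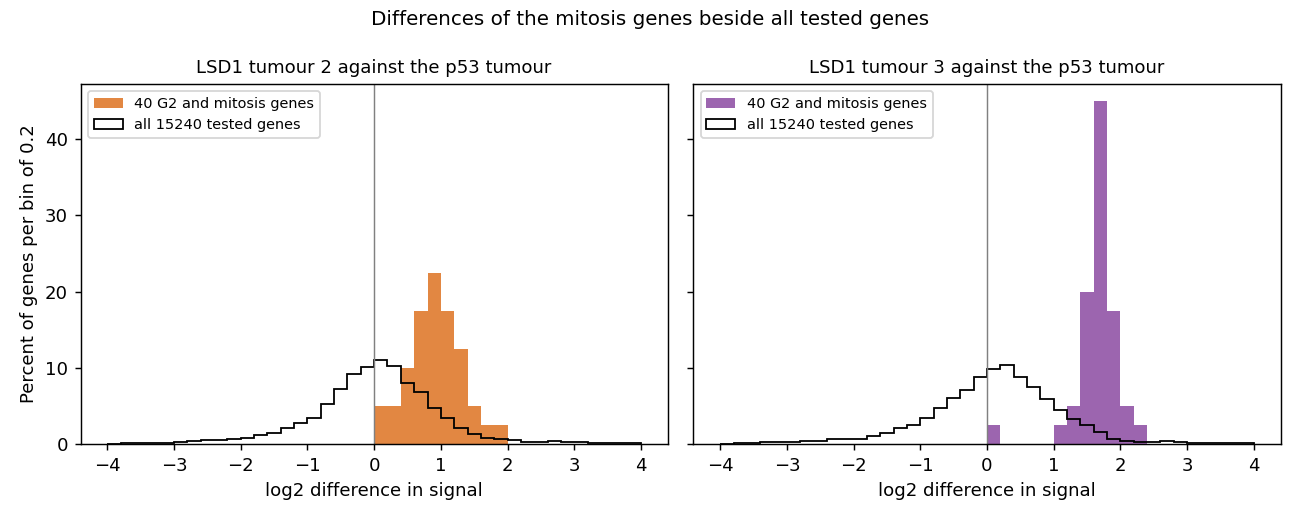
Percent of genes per bin of 0.2 log2 units, by log2 difference from the p53 tumour, for LSD1 tumour 2 and LSD1 tumour 3. Filled bars are the 40 G2 and mitosis genes, with medians of 0.89 and 1.70, and black outlines are all 15240 tested genes, with medians of 0.05 and 0.16.

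Many late cell cycle genes share a promoter element, the cell cycle genes homology region (CHR), which the DREAM repressor and the B-MYB and FOXM1 activators bind through the MuvB core, often with CCAAT boxes for NF-Y upstream. The promoters of the 40 genes were searched on both strands for the CHR letters TTTGAA, for the variant of it written TTCGAA, and for the box CCAAT. The 40 genes are listed as G2 and mitosis genes, so the motif shares describe that list and do not depend on the array values. RefSeq promoters of build GRCm38.p6, 250 bases before to 50 after the annotated start, were at hand for 33 of the 40 genes (35 promoters). A CHR-type motif was found in 27 of these 35 promoters (77.1%), against 19.2% of 32851 promoters in the table and 14.9% of those of tested genes. Within 50 bases of the start it was found in 24 of 35 (68.6%), against 5.31% of all promoters. CCAAT was present in 27 of 35 (77.1%) against 37.4%, and both motifs in 24 (68.6%) against 7.52%. The S phase genes used for comparison below held the CHR-type motif in 5 of 26 promoters (19.2%), and 117 further mitosis genes in 50 of 111 (45.0%). A match describes the letters and shows no binding. Pttg1, which differed least, held neither motif in its window. Nor did Mad2l1, Nuf2, Birc5 and Plk4, with mean differences of 1.75, 1.41, 1.09 and 1.06 log2 units.

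The 6 promoters printed belong to the genes with the largest mean difference among those that hold a CHR-type motif. Each runs from 150 bases before to 30 bases after the start, 5′ to 3′ on the gene's strand, and capitals mark these motifs, on the other strand as TTCAAA for the first and as ATTGG for the box. No CHR-type motif overlapped a CCAAT box in the 35 promoters. The positions are chr9:83834539-83834718 on the plus strand for Ttk, chr10:69352883-69353062 on the minus strand for Cdk1 and chr4:117178743-117178922 on the minus strand for Kif2c. The others are chr19:37376232-37376411 on the plus strand for Kif11, chr2:127831830-127832009 on the minus strand for Bub1 and chr5:30666736-30666915 on the plus strand for Cenpa.
Ttk: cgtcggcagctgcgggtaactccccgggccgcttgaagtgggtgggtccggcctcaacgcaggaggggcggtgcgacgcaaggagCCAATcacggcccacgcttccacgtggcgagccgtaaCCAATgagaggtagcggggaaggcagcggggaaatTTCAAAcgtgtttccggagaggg
Cdk1: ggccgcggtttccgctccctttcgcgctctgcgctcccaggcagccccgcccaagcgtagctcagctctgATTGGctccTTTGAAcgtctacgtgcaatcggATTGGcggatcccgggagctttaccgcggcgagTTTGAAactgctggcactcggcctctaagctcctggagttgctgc
Kif2c: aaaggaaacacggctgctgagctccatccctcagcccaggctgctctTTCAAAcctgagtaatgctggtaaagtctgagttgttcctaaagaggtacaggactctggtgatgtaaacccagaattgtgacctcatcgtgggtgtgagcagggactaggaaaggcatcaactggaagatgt
Kif11: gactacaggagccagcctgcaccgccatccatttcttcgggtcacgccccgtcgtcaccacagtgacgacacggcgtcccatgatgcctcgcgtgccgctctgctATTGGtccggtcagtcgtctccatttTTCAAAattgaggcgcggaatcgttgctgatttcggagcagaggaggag
Bub1: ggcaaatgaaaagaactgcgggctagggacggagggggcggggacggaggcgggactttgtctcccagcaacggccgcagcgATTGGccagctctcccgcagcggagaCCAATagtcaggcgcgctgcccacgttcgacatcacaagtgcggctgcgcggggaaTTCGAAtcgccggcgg
Cenpa: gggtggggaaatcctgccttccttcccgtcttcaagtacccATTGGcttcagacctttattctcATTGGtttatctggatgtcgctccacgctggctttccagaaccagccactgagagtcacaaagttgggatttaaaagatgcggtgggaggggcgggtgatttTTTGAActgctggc
In Ttk, Bub1 and Cenpa the CHR-type motif began 7, 14 and 16 bases after the start, with 2 CCAAT boxes upstream of it in each. Cdk1 held one beginning 15 bases before the start and another 71 bases before it, each downstream of a CCAAT box. Kif11 had 1 of each, and Kif2c had a single CHR-type motif at -103 bases from the start and no CCAAT box.

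**Figure D3:**
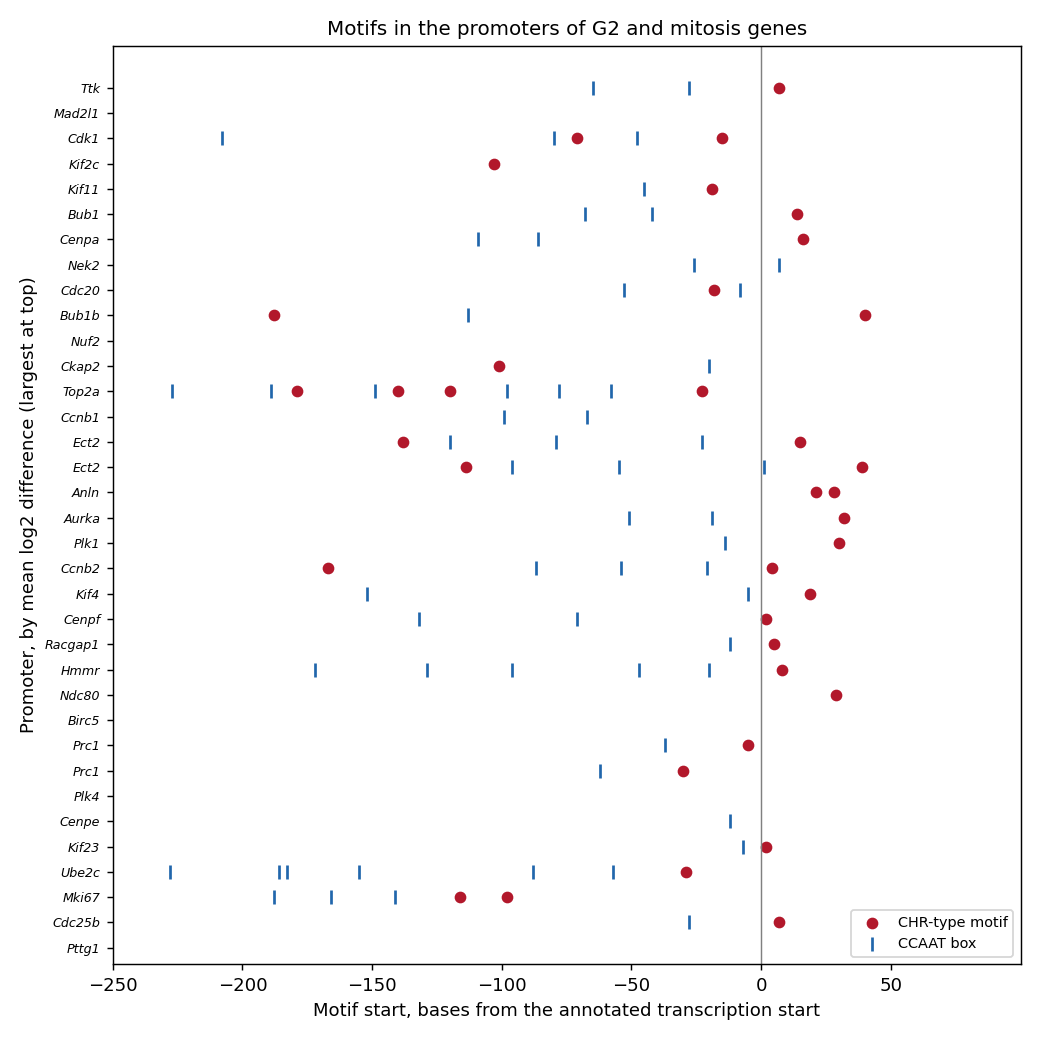
Start of each CHR-type motif (circles) and CCAAT box (ticks) in 35 promoters of 33 G2 and mitosis genes, in bases from the annotated transcription start, with promoters ordered by mean log2 difference from the largest at the top. Circles crowd around the start, with 24 of 35 promoters holding one within 50 bases, and the boxes lie mostly upstream of them.

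The kinases that drive mitotic entry, with their cyclins and activating phosphatases, formed the largest role group. A 2-fold difference was reached by 2 of 10 in LSD1 tumour 2 (background 11.7%) and by all 10 in LSD1 tumour 3 (background 15.2%). The median differences were 0.78 and 1.73 log2 units in LSD1 tumours 2 and 3. Cdk1, the kinase that starts mitosis, had 4.44 and 7.16 times the array's 75th percentile in LSD1 tumours 2 and 3, against 1.68 in the p53 tumour. Cyclin B1, its main mitotic partner, is encoded by Ccnb1, whose relative signal was 5.80 and 18.4 in LSD1 tumours 2 and 3, against 4.07 in the p53 tumour. LSD1 tumour 3 thus stood apart for Ccnb1, 3.17-fold above LSD1 tumour 2, the widest gap between those tumours among the 40 genes. The other Ccnb1 probes gave the same picture, with differences of 0.59 and 0.47 log2 units in LSD1 tumour 2 and of 2.52 and 1.96 in LSD1 tumour 3. Ccnb2, for cyclin B2, had relative signals of 24.1 and 43.0 in LSD1 tumours 2 and 3, against 13.1 in the p53 tumour, an even spacing on the log scale. Ccna2, for cyclin A2 of S phase and G2, differed 1.35-fold in LSD1 tumour 2 and 3.00-fold in LSD1 tumour 3, and was higher in both.

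The phosphatases that remove the inhibitory phosphates of cyclin-dependent kinases differed between the LSD1 tumours. Cdc25b had a relative signal of 1.72 and 4.78 in LSD1 tumours 2 and 3, against 1.72 in the p53 tumour. Only LSD1 tumour 3 was therefore high for Cdc25b, and the second probe was lower by 0.22 log2 units in LSD1 tumour 2 and higher by 1.26 in LSD1 tumour 3. In LSD1 tumour 2 the direction of Cdc25b turned with normexp (-0.05 log2 units), quantile normalization (-0.05), the mean over probes (-0.11), centring on all genes (-0.05) and the authors' value table (-0.21). Cdc25c had 1.53 and 3.62 in LSD1 tumours 2 and 3, against 0.955 in the p53 tumour. Among the other kinases, Aurka, which builds spindle poles, was 1.83-fold and 3.37-fold higher, and Plk1, which acts from mitotic entry to exit, 1.87-fold and 3.24-fold. Plk4, which controls centriole duplication, was 1.45-fold and 3.01-fold higher, and Nek2, which separates centrosomes, 2.12-fold and 3.50-fold. For each of these 4 kinases LSD1 tumour 3 was highest and the p53 tumour lowest.

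Kinetochore and spindle checkpoint genes had the highest median in LSD1 tumour 2 of the 6 role groups, 1.16 log2 units, and 1.71 in LSD1 tumour 3. Of 9 genes, 7 were at least 2-fold higher in both tumours, against 3.48% of all tested genes. Ttk encodes MPS1, the kinase that starts checkpoint signalling, and its relative signal was 1.47 and 1.88 in LSD1 tumours 2 and 3, against 0.391 in the p53 tumour. That mean difference of 2.09 ± 0.51 log2 units (limma standard error) was the largest of the 40 genes by the brightest probe, but with the mean over probes it was 1.70, below 1.80 for Mad2l1 and 1.74 for Cdk1. Both LSD1 tumours were well apart from the p53 tumour. Its other probes gave 1.65 and 0.48 in LSD1 tumour 2, and 2.11 and 1.77 in LSD1 tumour 3, so that LSD1 tumour 2 depends on the probe. Mad2l1 encodes MAD2, which holds back anaphase, and it had 8.95 and 11.8 in LSD1 tumours 2 and 3, against 3.05 in the p53 tumour. The second Mad2l1 probe differed by 1.56 and 2.15 log2 units. Bub1 and Bub1b, for the checkpoint proteins BUB1 and BUBR1, had mean differences of 1.54 and 1.42 log2 units, and both were more than 2-fold higher in either LSD1 tumour.

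The other 5 genes of the group belong to the centromere and the outer kinetochore. Cenpa, the histone H3 variant that marks centromeres, had relative signals of 8.13 and 12.4 in LSD1 tumours 2 and 3, against 3.51 in the p53 tumour. Ndc80, the microtubule-binding subunit of the outer kinetochore, had 1.32 and 1.23, against 0.592 in the p53 tumour. For Ndc80 the LSD1 tumours lay within measurement error of each other, whereas its partner Nuf2 had 4.51 and 7.37, against 2.17 in the p53 tumour. The motor gene Cenpe was 1.52-fold and 2.81-fold higher and the kinetochore corona gene Cenpf 1.91-fold and 2.96-fold.

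Spindle genes were the most uniform group in LSD1 tumour 3, where 6 of 6 lay between 1.62 and 1.86 log2 units, while in LSD1 tumour 2 they ran from 0.66 to 1.48. Kif11, the motor that pushes spindle poles apart, had relative signals of 1.53 and 1.99 in LSD1 tumours 2 and 3, against 0.594 in the p53 tumour. Kif2c, a microtubule-depolymerising kinesin, had 0.639 and 0.759, against 0.230 in the p53 tumour. In both genes the LSD1 tumours were near each other and more than 2-fold above the p53 tumour. The second Kif2c probe was not above background in the p53 tumour. Kif4, a motor of chromosomes and the central spindle, had 0.977 and 2.14, against 0.589 in the p53 tumour, so that LSD1 tumour 3 stood apart. Tpx2, the activator of Aurora A, was 1.94-fold and 3.13-fold higher, Hmmr, a spindle pole protein gene, 1.58-fold and 3.08-fold, and Ckap2, a microtubule stabiliser, 2.09-fold and 3.26-fold.

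Genes of the chromosomal passenger complex and of cytokinesis had medians of 0.81 and 1.64 log2 units in LSD1 tumours 2 and 3. The passenger kinase gene Aurkb differed 2.20-fold in LSD1 tumour 2 and 3.70-fold in LSD1 tumour 3, and was higher in both. Its partner Birc5, for survivin, was 1.60-fold and 2.82-fold higher. Incenp, the scaffold of the complex, was 1.71-fold and 2.56-fold higher. Prc1, which bundles the microtubules of the central spindle, had 9.11 and 22.1, against 6.72 in the p53 tumour. Prc1 was thus nearer to the p53 tumour in LSD1 tumour 2 and well above both in LSD1 tumour 3, as its other probe also showed (0.37 and 1.69 log2 units). The RhoA activator gene Ect2 was 2.06-fold and 3.11-fold higher. With Aurkb it was 1 of the 2 genes of 9 that were 2-fold higher in both tumours, against 3.48% of all tested genes. The remaining 5 were Kif20a and Kif23, motors of the central spindle, Racgap1, the partner of KIF23, Anln, an actin organiser of the furrow, and Prc1. The first 4 of these were between 1.73-fold and 1.96-fold higher in LSD1 tumour 2 and between 2.45-fold and 3.35-fold in LSD1 tumour 3.

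The 3 genes of mitotic exit, which act on or with the anaphase-promoting complex, differed from each other. Cdc20, the activator of that complex, differed 2.33-fold in LSD1 tumour 2 and 3.14-fold in LSD1 tumour 3, and was higher in both. Ube2c, its ubiquitin-conjugating enzyme, had relative signals of 11.1 and 30.6 in LSD1 tumours 2 and 3, against 9.05 in the p53 tumour. LSD1 tumour 2 was close to the p53 tumour for Ube2c, at 1.22-fold, within 2 measurement errors. Pttg1 encodes securin, the inhibitor of separase, and had 12.1 and 12.6 in LSD1 tumours 2 and 3, against 11.4 in the p53 tumour. It was the only member within 2 measurement errors in both LSD1 tumours, and its mean direction turned under 3 alternatives, namely quantile normalization, the authors' value table and the mean over probes. The second Pttg1 probe stood at -0.67 and 0.33 log2 units in LSD1 tumours 2 and 3.

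Foxm1, the transcription factor that activates many of the genes above, had relative signals of 3.65 and 3.49 in LSD1 tumours 2 and 3, against 1.18 in the p53 tumour. The LSD1 tumours did not differ for Foxm1 beyond measurement error, with a mean difference from the p53 tumour of 1.60 ± 0.48 log2 units (limma standard error). Top2a, the topoisomerase that untangles chromosomes, had 14.2 and 28.3, against 7.84 in the p53 tumour, and its second probe gave 0.76 and 1.95 log2 units. Mki67, the gene of the proliferation marker Ki-67, had 48.5 and 113 in LSD1 tumours 2 and 3, against 39.5 in the p53 tumour. For Mki67, LSD1 tumour 2 lay within 2 measurement errors of the p53 tumour, and with quantile normalization it was lower there by 0.02 log2 units.

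Between the LSD1 tumours, 38 of the 40 genes were higher in tumour 3, against 53.9% of all tested genes (those above background in tumour 3 counted as higher), and the median gap was 0.72 log2 units, beside 0.10 over all tested genes. With 1 array each this has no test. LSD1 tumour 2 was alone on slide 2 and in scan 2, so this gap cannot be told apart from slide or scan. At least 2-fold higher in tumour 3 than in tumour 2 were 9 of the 40 genes (22.5%), against 14.0% of all tested genes. These were Ccnb1, Ccna2, Cdc25b, Cdc25c, Plk4, Kif4, Prc1, Ube2c and Mki67. Within 2 measurement errors of each other lay 8 genes, namely Bub1, Ttk, Mad2l1, Ndc80, Kif11, Kif2c, Foxm1 and Pttg1. None was at least 2-fold higher in tumour 2 than in tumour 3, against 11.1% of all genes. Of the 25 probes not chosen to stand for a gene, 22 were above background on all 3 arrays and 20 of those were higher in both LSD1 tumours, the others being those of Cdc25b and Pttg1.

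Further genes of mitosis, 117 in all, were also mostly higher. Of 116 measured, 105 were higher in both LSD1 tumours and 29 at least 2-fold, against 35.0% and 3.48% of all tested genes, with medians of 0.77 and 1.31 log2 units in LSD1 tumours 2 and 3. The 2-fold count was 15 in the authors' value table (background 1.44%), 18 with normexp (background 2.12%) and 73 without LSD1 tumour 2 (background 15.2%). Kinetochore genes outside the 40 had medians of 0.76 and 1.49, with 8 of 33 at least 2-fold higher in both. Cenpw, a centromere histone-fold subunit, was highest by mean difference, with relative signals of 10.3 and 13.8 in LSD1 tumours 2 and 3, against 2.68 in the p53 tumour. The checkpoint subunit gene Zwilch was 2.99-fold and 2.95-fold higher, and Ska3, of the complex that tracks microtubule ends, 2.92-fold and 3.71-fold. Spindle and cytokinesis genes outside the 40 had medians of 0.98 and 1.63, with 10 of 24 at least 2-fold higher in both, among them the kinesin genes Kif18b (2.36-fold and 3.45-fold) and Kif20b (2.77-fold and 2.94-fold) and the spindle gene Fam83d (2.69-fold and 3.54-fold). Kinases and regulators had medians of 0.96 and 1.25, with 9 of 22 at least 2-fold higher in both. The checkpoint kinase gene Chek1 had 0.941 and 0.696, against 0.271 in the p53 tumour, and with Gtse1 (3.67-fold and 3.34-fold) was higher in LSD1 tumour 2 than in tumour 3. Pbk, a mitotic kinase gene, was 2.28-fold and 3.46-fold higher.

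The lists of condensin and cohesin genes and of the anaphase-promoting complex had lower medians than the 40 genes in both LSD1 tumours. Condensin and cohesin genes had medians of 0.60 and 1.26, with 2 of 20 at least 2-fold higher in both tumours. The condensin genes Ncapd2 and Ncapg had mean differences of 1.38 and 1.46 log2 units, and the separase gene Espl1 of 1.55. Genes of the anaphase-promoting complex and its regulators had medians of 0.28 and 0.66. At least 2-fold higher in both were 0 of 17, which is near the 3.48% of all tested genes. Its subunit genes Anapc5 and Anapc16 had mean differences of 0.78 and 0.79 log2 units, and the inhibitor gene Fbxo5, which is itself regulated with the cell cycle, was 1.71-fold and 2.71-fold higher.

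Genes of S phase, the preceding stage, had medians of 0.59 and 1.52 log2 units in LSD1 tumours 2 and 3, beside 0.89 and 1.70 for the 40 mitosis genes. Of 32 genes, 28 were higher in both tumours and 8 at least 2-fold, against 35.0% and 3.48% of all tested genes. The 2-fold count was 5 with quantile normalization (background 2.90%) and 5 in the authors' value table (background 1.44%). Without LSD1 tumour 2 it was 30, for LSD1 tumour 3 alone (background 15.2%). The replication genes Cdc45, Gins2 and Pole, for the helicase and the leading-strand polymerase, had mean differences of 1.87, 1.70 and 1.53. Genes tied to quiescence and growth arrest had medians of -0.60 and -0.82. Of 12 genes, 6 were lower and 2 higher in both tumours, against 27.8% and 35.0% of all tested genes. Klf2, a transcription factor of resting lymphocytes, had relative signals of 4.49 and 8.41 in LSD1 tumours 2 and 3, against 19.0 in the p53 tumour. Txnip, a thioredoxin inhibitor gene, stood at -1.13 and -0.99 log2 units and Foxo1, a transcription factor gene, at -1.37 and -0.94.

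**Figure D4:**
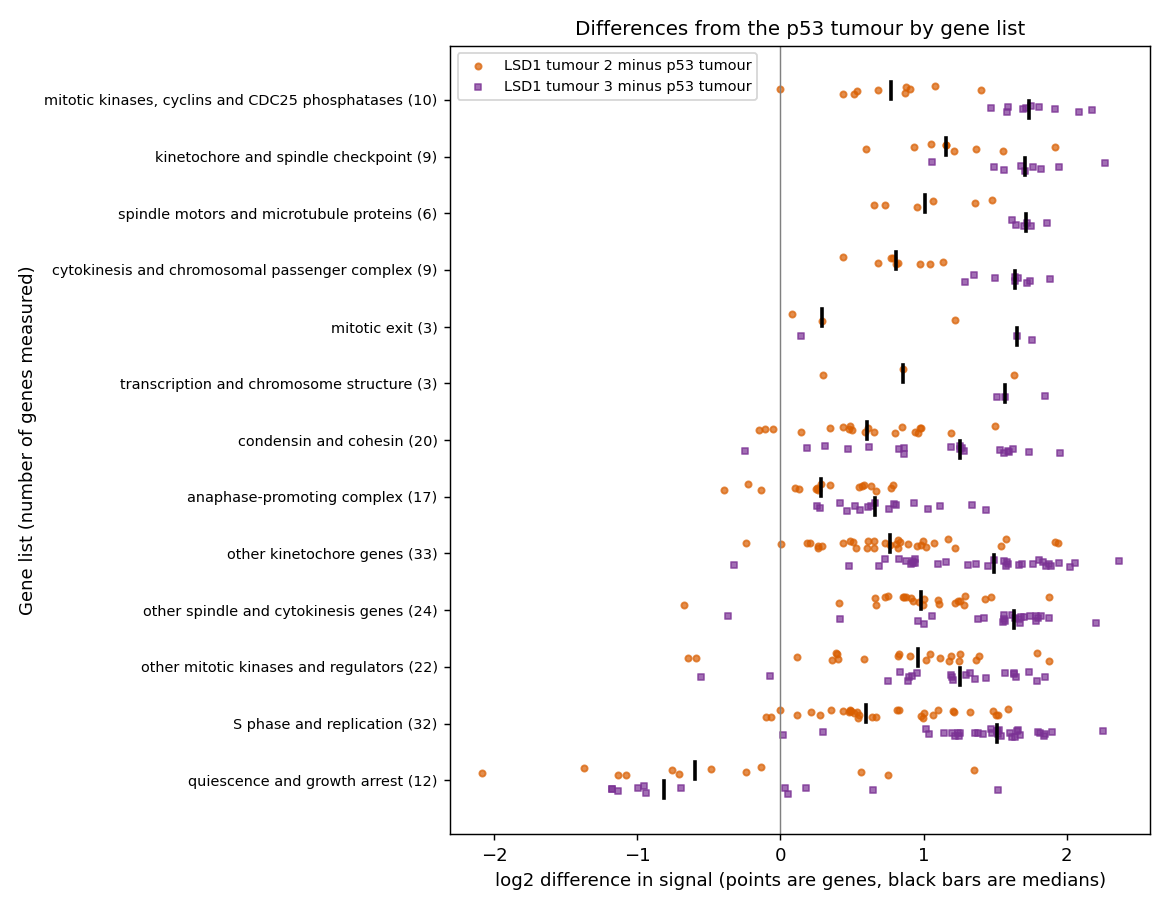
Differences in log2 signal from the p53 tumour for each gene (points) and list (rows), with LSD1 tumour 2 as circles, LSD1 tumour 3 as squares and black bars for medians. The medians are 0.78 and 1.73 for mitotic kinases, 0.28 and 0.66 for the anaphase-promoting complex and -0.60 and -0.82 for quiescence genes.

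Cell type markers differed between the same tumours, and their part in the mitosis values was not tested. Neutrophil precursor genes were higher in both LSD1 tumours (8 of 8), with summed relative signals of 82.8 and 69.6 in LSD1 tumours 2 and 3, against 25.8 in the p53 tumour. Erythroid genes were higher in LSD1 tumour 2 for 2 of 9 and in LSD1 tumour 3 for 9 of 9, with sums of 119 and 304, against 146 in the p53 tumour, and Ahsp of the same list had no named probe. T cell genes were higher in 7 of 8 cases in LSD1 tumour 2 and in 0 of 8 in LSD1 tumour 3, with sums of 211 and 49.1, against 83.4 in the p53 tumour, and Trat1 was not above background in LSD1 tumour 3. B cell genes were lower in both (8 of 8), with sums of 36.6 and 147, against 228 in the p53 tumour. Of 5 germinal centre genes, which mark activated dividing B cells, 3 were lower in both LSD1 tumours, against 27.8% of all tested genes, and 0 higher in both. Their sums were 2.01 and 2.72, against 6.77 in the p53 tumour. Bcl6 made up most of these sums, with 1.56 and 1.67 in LSD1 tumours 2 and 3, against 5.87 in the p53 tumour. Rgs13 was 2.19-fold higher in LSD1 tumour 3, and S1pr2 was 1.24-fold higher in LSD1 tumour 2. Rgs13 and Gcsam were not above background in LSD1 tumour 2. Macrophage sums were 130 and 173, against 165, and megakaryocyte sums 22.6 and 30.8, against 27.2. Progenitor genes summed to 3.70 and 3.08, against 5.61 in the p53 tumour, with Mecom not above background on any array and Hlf not in LSD1 tumour 3. LSD1 tumour 2 lay by itself on slide 2, read in scan 2, while slide 1, read in scan 1, carried both other arrays. Within slide 1, the comparison of LSD1 tumour 3 with the p53 tumour had 39 of 40 genes at least 2-fold higher, against 15.2% of all tested genes.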

How the data were processed

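Labelled RNA of 3 splenic tumours was hybridised to 1 array each, per the labels' protocols. The deposited intensity of each spot was the processed signal of Agilent Feature Extraction 11.5.1.1, not scaled between arrays. The software had subtracted background and detrended it, per the file headers, and its version is from the submitters' processing notes. From 51.5% to 55.6% of spots were well above background. A deposited value table held the same intensities times 1 factor per array, whose basis is not stated.

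Outlier spots were dropped, each array was scaled to its 75th percentile, and log2 was taken. Probes were named through RefSeq accessions (assembly GRCm38.p6), which named 32994 of 56605 probes. The brightest probe stood for a gene. A gene entered the fit if 1 or more arrays measured it above background. The fit used limma 3.58.1 (lmFit, then eBayes, with Benjamini-Hochberg adjustment) under R 4.3.3. A 2-fold count needed the brighter side above background. Probes with 10 spots had a median SD of 0.04 log2 units within an array. The steps were tested on simulated data.

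The members and lists were chosen with earlier results of these data known. Text names the 40 members, and from each further mitosis or comparison list the 3 genes above background on all arrays with the largest mean difference. Marker genes not above background on an array are named as well. Of the germinal centre list, 1 gene is not reported here and is left out of its sums.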

Additional observations from a re-analysis of the deposited data

How the results depend on the processing

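Limma called 0 of the 40 genes under all 7 alternatives that leave a test (normexp, quantile normalization, the authors' value table, both filters, the mean over probes, centring on all genes). The number higher in both LSD1 tumours stayed between 37 and 40. Beside it, the share of all tested genes ran from 21.1% in the authors' value table to 40.6% over genes above background on all 3 arrays. The 2-fold count of members was 12 with normexp (background 2.12%), 14 after centring on all genes (background 2.64%) and 8 by the authors' values (background 1.44%). By the authors' values the medians of all genes were -0.16 and -0.20 log2 units in LSD1 tumours 2 and 3. Of all genes 2-fold apart in both, 14.7% were higher by those values, against 39.3% in the main setting. That share was 51.8% over genes above background on all 3 arrays and 45.0% with normexp. Further mitosis genes numbered 18 with normexp and 15 in the authors' table, and S phase genes 5 with quantile normalization (background 2.90%) and 5 in the authors' table. With slide as a block the comparison equals that of LSD1 tumour 3 alone, where 15.2% of all tested genes were at least 2-fold higher. The counts there were 39, 73 and 30 for members, further mitosis genes and S phase genes. Leaving out LSD1 tumour 3 or LSD1 tumour 2 gave ranges of 16 to 39, 32 to 73 and 9 to 30 for these, and of 0.89 to 1.70 for the members' median difference, which has no test with 1 array each. Pttg1 turned to a mean of -0.21 with quantile normalization, -0.18 in the authors' table and -0.030 with the mean over probes. The cause was not tested. No paired analysis was possible because the groups share no replicate number. With 3 arrays, their number limits the precision.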

Other observations

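Genes of the complexes that read the CHR element did not share 1 pattern, by values chosen after they were seen. Mybl2, which encodes the B-MYB activator, had relative signals of 6.05 and 17.4 in LSD1 tumours 2 and 3, against 5.58 in the p53 tumour, so that it was 1.08-fold and 3.12-fold higher. Lin9 and Lin54, of the MuvB core, had mean differences of 0.87 and 0.64 log2 units. Lin37 and Lin52, of the same core, stood at -0.64 and -0.07, and at -0.59 and -0.55 log2 units. Ska2 and Troap, for a kinetochore and a spindle protein, were above background in both LSD1 tumours but not in the p53 tumour. Within the S phase list, Cdc6, Rrm2 and Ung were the genes not higher in LSD1 tumour 2, at -0.00, -0.07 and -0.10 log2 units.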
